A study of Mus musculus and unidentified plasmid with 60 samples.

Results

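Binding of a dominant-negative RFX protein was described around Nr4a1, Nr4a2 and Nr4a3, the genes of the 3 NR4A orphan nuclear receptors, in mouse cortical neurons before and after depolarization. The members are the listed ChIP-seq regions that overlap a fixed mm9 window around each gene: chr15:101070000-101120000 for Nr4a1 (50 kb), chr2:56930000-57000000 for Nr4a2 (70 kb) and chr4:48020000-48120000 for Nr4a3 (100 kb). These windows held 60 of the 295409 regions in the 3 lists used, namely 23 of 173231 at 0 h, 37 of 122135 at 1 h and 0 of 43 in the WT list. The genes were chosen by the presence of regions at 0 h and at 1 h in these same lists, so the counts, widths and column support below describe the windows and no test was made on them.

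The series has 60 samples, of which 8 are ChIP-seq libraries from cultured cortical neurons of E16 CD-1 embryos. In the RFX-DN groups (2 libraries each), neurons received a dominant-negative RFX construct in a lentivirus on their second day in vitro (DIV 2), and chromatin was precipitated with an antibody against its MYC tag. The neurons were quieted overnight from DIV 6 with tetrodotoxin and DL-2-amino-5-phosphonopentanoic acid, and on DIV 7 they were either left unstimulated (0 h) or depolarized with 55 mM KCl for 1 h. Both groups carry the construct, so the lists show where an introduced, tagged protein was found and not the native RFX proteins. The promoter that drives the construct is not given in the labels. Another group of 2 libraries is titled WT and has no treatment label, and the labels leave unclear if it carried the construct. Input libraries, 2 in number, were not analysed here. No expression values were used, so the labelled cell type was not checked against marker genes.

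Each list combines the 2 libraries of its group. A region has a start and an end and, in columns named c1 and c2, the position of a peak centre in each of 2 replicates, or a mark that this replicate has none. A region with centres in both columns is thus supported by both replicates. A region is called shared when it overlaps a region of the other time by at least 1 base. Read depth is unknown, and width is the only measure of a region's size in the lists. The labels do not tell if a group's 2 libraries are from different cultures, so a spread between columns may be technical.

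NR4A proteins are transcription factors of the nuclear receptor superfamily that act without a known endogenous ligand. Their genes are immediate early genes: in neurons, depolarization and calcium entry switch them on quickly, in large part through CREB at cAMP response elements (CREs) in their promoters. Nr4a1 encodes NUR77, also called NGFI-B, Nr4a2 encodes NURR1, which dopamine neurons of the midbrain need for their development, and Nr4a3 encodes NOR1. RFX proteins bind X-box sequences through a winged-helix domain and are best known as regulators of ciliary genes and of MHC class II genes.

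The promoters are shown because all 3 carry the same short CRE core several times, an element through which neuronal activity is known to act on these genes. The sequences are the 250 bases before the start of each gene from RefSeq (build GRCm38.p6), for Nr4a1 chr15:101266596-101266845 on the forward strand, for Nr4a2 chr2:57124004-57124253 on the reverse strand and for Nr4a3 chr4:48045055-48045304 on the forward strand. Each is written 5′ to 3′ along its gene, and capitals mark the CRE core, TGACG or its reverse complement CGTCA.
Nr4a1: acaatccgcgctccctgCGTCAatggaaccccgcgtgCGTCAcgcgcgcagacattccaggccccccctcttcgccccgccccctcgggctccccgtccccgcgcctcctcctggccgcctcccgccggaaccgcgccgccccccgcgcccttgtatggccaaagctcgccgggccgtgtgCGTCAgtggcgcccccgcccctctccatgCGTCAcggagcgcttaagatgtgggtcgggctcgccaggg
Nr4a2: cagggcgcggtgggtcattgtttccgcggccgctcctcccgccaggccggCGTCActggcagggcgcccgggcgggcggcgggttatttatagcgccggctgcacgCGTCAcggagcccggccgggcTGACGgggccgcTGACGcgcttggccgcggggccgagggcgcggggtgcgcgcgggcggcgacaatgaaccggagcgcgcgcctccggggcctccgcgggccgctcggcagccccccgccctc
Nr4a3: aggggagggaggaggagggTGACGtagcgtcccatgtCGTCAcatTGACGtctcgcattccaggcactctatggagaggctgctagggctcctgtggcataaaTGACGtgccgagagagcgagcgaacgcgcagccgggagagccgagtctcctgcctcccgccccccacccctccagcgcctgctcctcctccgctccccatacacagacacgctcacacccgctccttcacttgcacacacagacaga
These positions are in another build than the mm9 lists, so the regions could not be laid on the promoters, and no statement is made on which region lies at a start site, in an exon or in an intron.

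Each of the 3 promoters held 4 CRE cores. They lay 35 to 228 bases before the start in Nr4a1, 106 to 195 bases in Nr4a2 and 142 to 226 bases in Nr4a3, counted to the nearer edge. All 4 lay on the reverse strand in Nr4a1, whereas Nr4a2 had 2 on each strand and Nr4a3 had 3 on the forward strand and 1 on the reverse. Of 32817 RefSeq promoters of the same length, 17.7% held at least 1 such core and 45 (0.137%), the 3 Nr4a promoters included, held 4 or more. The limit of 4 is the number in the Nr4a promoters themselves, and 0.689% of all held 3 or more. The Nr4a1, Nr4a2 and Nr4a3 promoters were 74.4%, 80.0% and 63.6% GC. The core holds a CG, and the shares are over promoters of any GC content. In this count a full CRE, TGACGTCA, holds the core on either strand and counts as 2. The full CRE was in none of the 3 promoters and in 1.55% of all. The X-box arm GTTGCC or its reverse complement GGCAAC was in none of the 3 and in 10.4% of all. AP-1 sites, TGANTCA, were in none of the 3 and in 6.75% of all, and the NBRE, AAAGGTCA, to which NR4A proteins themselves bind as monomers, in none of the 3 and in 1.34% of all. The letters were searched on both strands, and other forms of these sites were not searched. A match or its absence describes these letters in these 250 bases only.

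All 3 windows held more regions after depolarization than before it, while the list as a whole was shorter. The Nr4a1 window held 8 regions at 0 h and 13 at 1 h, the Nr4a2 window 3 and 5, and the Nr4a3 window 12 and 19. The ratios of 1 h to 0 h were 1.62, 1.67 and 1.58, against 0.705 for the whole lists (122135 over 173231). The length covered by regions was also larger at 1 h in each window: 1670 and 3500 bases in Nr4a1, 470 and 740 bases in Nr4a2, and 3050 and 4050 bases in Nr4a3. Over the whole lists the covered length at 1 h was 0.709 times that at 0 h. A single region of 1570 bases accounts for much of the 3500 bases of Nr4a1 at 1 h, and the median width at 0 h and 1 h was 210 and 190 bases in Nr4a1, 130 and 130 bases in Nr4a2 and 240 and 210 bases in Nr4a3.

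**Figure D1:**
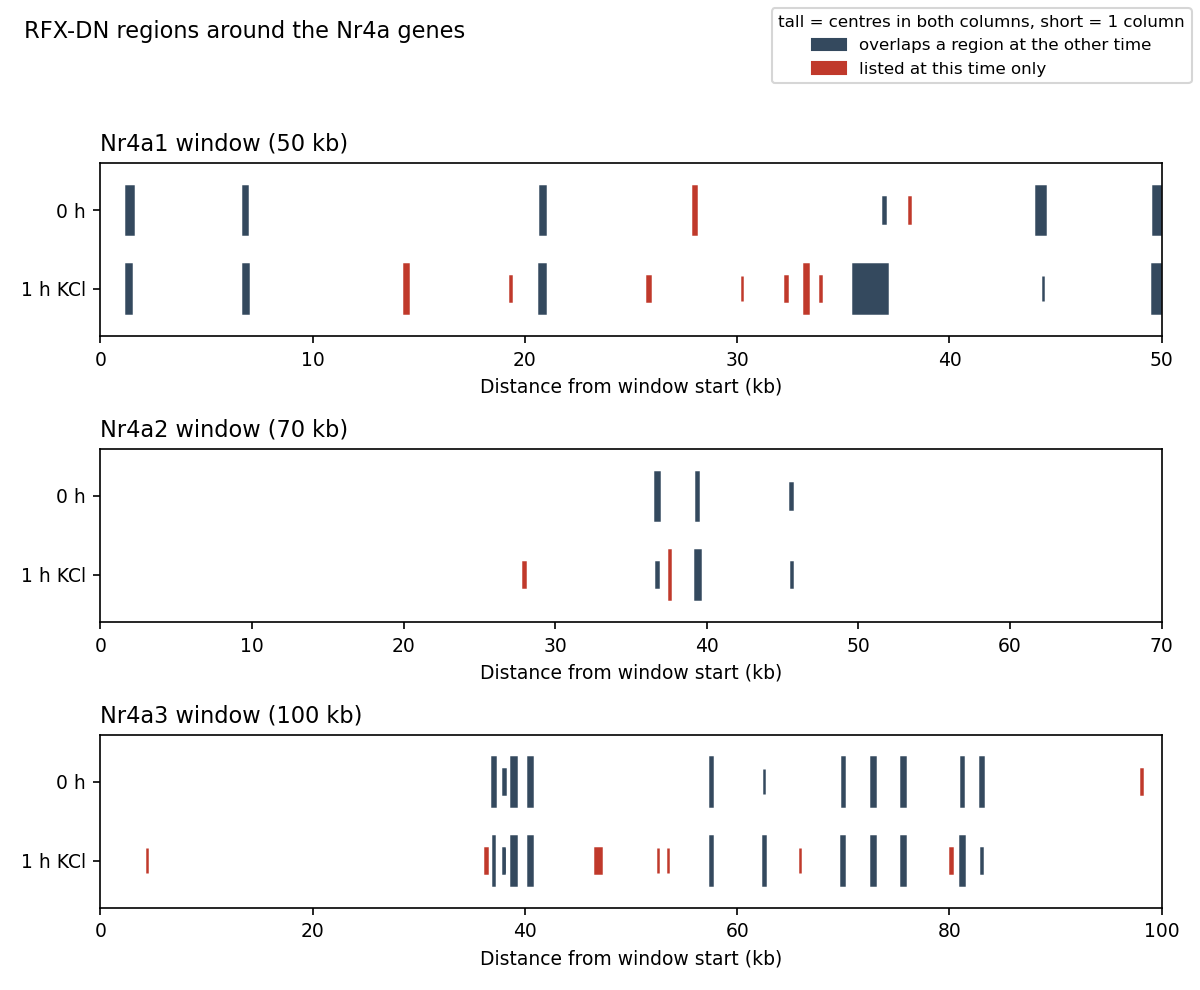
Regions in the windows of Nr4a1, Nr4a2 and Nr4a3 by distance from the window's start (kb), with 0 h above and 1 h of KCl below in each panel. Tall boxes have centres in both replicate columns and short boxes in 1, red boxes have no counterpart at the other time, and an outline of fixed thickness makes the narrowest boxes look wider than they are. Red boxes number 16 at 1 h and 3 at 0 h, and the 1570-base region of Nr4a1 is the widest box.

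The windows differed in density. Nr4a1 had 16 regions per 100 kb at 0 h and 26.0 at 1 h, against 7.28 and 5.05 over chromosome 15. Nr4a3 had 12.0 and 19.0, against 6.76 and 4.72 over chromosome 4. Nr4a2 had 4.29 and 7.14, against 7.22 and 5.04 over chromosome 2. At 0 h the Nr4a2 window was thus the only 1 of the 3 with fewer regions per 100 kb than its chromosome.

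The mean number of centres per replicate column was higher at 1 h in each window. In Nr4a1 the columns c1 and c2 held 7 and 7 centres at 0 h and 11 and 9 at 1 h, with means of 7.0 ± 0.0 and 10 ± 1.41 (SD, n = 2 columns). Nr4a2 had 3 and 2 centres at 0 h and 4 and 3 at 1 h, means of 2.5 ± 0.707 and 3.5 ± 0.707 (SD, n = 2). In Nr4a3 the numbers were 12 and 9 at 0 h and 16 and 12 at 1 h, means of 10.5 ± 2.12 and 14.0 ± 2.83 (SD, n = 2). In Nr4a1 each 1 h column held more centres than either 0 h column, and how often other stretches of the genome do so was not computed. In Nr4a2 and in Nr4a3 the lower 1 h column equalled the higher 0 h column.

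**Figure D2:**
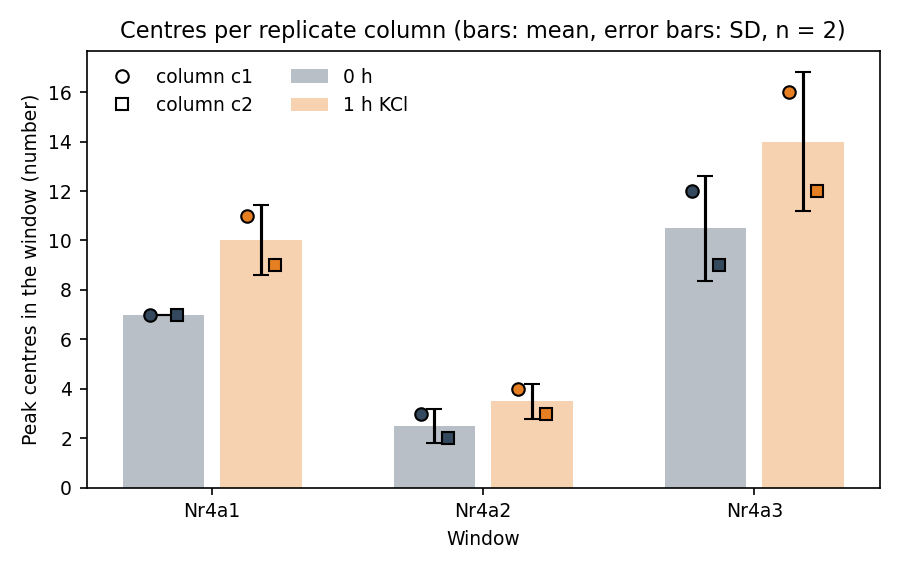
Number of peak centres in each window (y axis) by gene (x axis), at 0 h and after 1 h of KCl. Circles and squares are the 2 replicate columns, bars the mean and error bars the SD (n = 2). The means are higher at 1 h in every window, by 3 centres in Nr4a1, 1 in Nr4a2 and 3.5 in Nr4a3.

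The columns differ in their totals, with 155961 and 122913 centres at 0 h and 114659 and 74386 at 1 h. Per 100000 centres of its column, the 3 windows together held 14.1 and 14.6 centres at 0 h and 27 and 32.3 at 1 h, or 14.4 ± 0.381 and 29.7 ± 3.7 (mean ± SD, n = 2 columns). On this scale Nr4a1 had 4.49 and 5.7 at 0 h and 9.59 and 12.1 at 1 h. Nr4a2 had 1.92 and 1.63, then 3.49 and 4.03, and Nr4a3 had 7.69 and 7.32, then 14.0 and 16.1. Both column totals were lower at 1 h, so an unchanged number of centres would also be higher on this scale. How often other stretches of the genome rise by as much was not computed.

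The surplus at 1 h consisted almost wholly of regions found by 1 replicate. Centres in both columns were held by 17 regions of the 3 windows at 0 h and by 18 at 1 h, while regions with a centre in 1 column numbered 6 and 19. By gene, the both-column regions numbered 6 and 7 in Nr4a1, 2 and 2 in Nr4a2, and 9 and 9 in Nr4a3. In the whole lists the numbers were 105643 and 66910 for both columns and 67588 and 55225 for 1 column, that is 0.633 and 0.817 times as many at 1 h, against 1.06 and 3.17 times in the windows. As a share of regions, both-column support was 73.9% at 0 h and 48.6% at 1 h in the windows, beside 61.0% and 54.8% in the lists. When the first 1 h column was left out and the 0 h list kept whole, the surplus was 1 region in Nr4a1 and 0 in the other windows.

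Regions without a counterpart were mostly on the side of 1 h. Of the 37 regions at 1 h, 16 (43.2%) overlapped no 0 h region, where 6.69% of all 1 h regions did so. They were 7 of 13 in Nr4a1, 2 of 5 in Nr4a2 and 7 of 19 in Nr4a3. Without the first 1 h column, c1, the 16 became 7, namely 4 in Nr4a1, 2 in Nr4a2 and 1 in Nr4a3. Without the second, c2, they were 5 in Nr4a1, 1 in Nr4a2 and 6 in Nr4a3. Of the 23 regions at 0 h, 3 (13.0%) overlapped no 1 h region, where 34.6% of all 0 h regions did so: 2 of 8 in Nr4a1, 0 of 3 in Nr4a2 and 1 of 12 in Nr4a3. The 1 h-only regions were narrow, with a median of 75 bases against 260 bases for the 21 shared 1 h regions of the windows and 70 bases for all 1 h-only regions.

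Only 3 of the 16 had centres in both columns. List-wide, 0.435% of both-column 1 h regions (291 of 66910) had no 0 h counterpart, and these 3 are among those 291. In the windows they were 3 of 18. Of the 19 regions at 1 h with a centre in 1 column, 13 had no 0 h counterpart, beside 14.3% of all such regions, and of the 6 at 0 h, 2 had no 1 h counterpart, beside 65.2%. Of the 3 both-column regions listed only at 1 h, Nr4a1 held 2. They lay at chr15:101084300-101084490 (190 bases, centres 40 bases apart) and at chr15:101103130-101103340 (210 bases, centres 20 bases apart). The third lay in Nr4a2 at chr2:56967500-56967550 (50 bases, centres 10 bases apart). Nr4a3 had none.

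In the Nr4a1 window the 7 1 h-only regions lay within 19.66 kb, from 101084300 to 101103960. Besides the both-column pair, 3 had a centre in c1 only: chr15:101089290-101089360 (70 bases), chr15:101100210-101100230 (20 bases) and chr15:101102270-101102340 (70 bases). Another 2 had a centre in c2 only, chr15:101095740-101095890 (150 bases) and chr15:101103880-101103960 (80 bases). Each replicate at 1 h thus contributed regions of its own. In the same stretch the 0 h list held a both-column region absent at 1 h, chr15:101097930-101098040 (110 bases), which is of a kind that made up 15.1% of all both-column 0 h regions. The other region listed only at 0 h, chr15:101108100-101108130, was 30 bases wide and had a centre in c2.

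The widest region of any Nr4a window lay next to this stretch. At 0 h the list held chr15:101106890-101106950, 60 bases wide with a centre in c1. At 1 h it held chr15:101105470-101107040 in its place, 1570 bases wide with centres in both columns. The 1 h region reached 1420 bases further towards lower coordinates and 90 bases further towards higher ones. Its centres stayed at the 0 h position, 1420 and 1430 bases from the start, and the mean centre lay 15 bases from that at 0 h. Only 17 of the 122135 regions at 1 h were at least as wide, and among the 112001 pairs of regions with exactly 1 counterpart each, 7 widened by at least this ratio of 26.2.

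The opposite change was also found in Nr4a1. The widest 0 h region of that window, chr15:101114070-101114480, was 410 bases wide with coinciding centres in both columns. Its counterpart at 1 h, chr15:101114410-101114420, was only 10 bases wide, the smallest width listed, with a centre in c1 only, 305 bases from the 0 h centre. List-wide, 43 pairs narrowed by at least this ratio of 41.0. The other 4 shared regions of Nr4a1 had centres in both columns at both times. Their widths at 0 h and 1 h were 310 and 240 bases (chr15:101071210-101071520 at 0 h), 190 and 250 bases (chr15:101076730-101076920), 230 and 300 bases (chr15:101090700-101090930) and 330 and 340 bases (chr15:101119570-101119900). These 4 changed by less than 1.5 times in either direction.

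Nr4a2 had the fewest regions, and all 3 of its 0 h regions were shared. The region chr2:56969310-56969420 had centres in both columns at both times and measured 110 bases at 0 h and 320 at 1 h (chr2:56969210-56969530). It reached 100 bases further at its lower end and 110 bases further at its higher end, a widening of 2.91 times that 1.33% of all pairs matched or exceeded. The region chr2:56966610-56966840 went from 230 bases and both columns at 0 h to 140 bases and c1 only at 1 h. The region chr2:56975460-56975590 had a c1 centre at both times, with widths of 130 and 100 bases. The both-column region seen only at 1 h lay between the first 2 of these, and the other 1 h-only region, chr2:56957880-56958010 (130 bases), had a centre in c2.

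In Nr4a3, all 9 both-column regions at 0 h were listed at 1 h, and 8 of the 9 had both centres there too. The widest at 0 h was chr4:48058680-48059210 with 530 bases, which was 480 bases wide at 1 h, followed by chr4:48060250-48060700 with 450 and 410 bases and chr4:48092600-48092980 with 380 and 370 bases. In each of these 3 the mean of the 2 centres moved by 5 bases between the times. The exception in support, chr4:48102890-48103150, went from 260 bases at 0 h to 140 at 1 h with a centre in c2 only. The only both-column region of Nr4a3 at 1 h that had 1 column at 0 h was chr4:48082550-48082560, which went from 10 bases to 220 bases (chr4:48082430-48082650), a ratio of 22.0 that 18 of all pairs reached. The region chr4:48101110-48101280 had both centres at both times and measured 170 bases at 0 h and 320 at 1 h (chr4:48101010-48101330), a ratio of 1.88 that 2.59% of all pairs reached. At chr4:48057940-48058110, a c1 region of 170 bases at 0 h met 2 pieces at 1 h, of 20 and 40 bases, with a centre in c2 and in c1 respectively.

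The 7 regions of Nr4a3 listed only at 1 h were spread over 75.88 kb and each had a centre in 1 column. The widest was chr4:48066620-48067130 with 510 bases and a c1 centre, and 4 of all 8170 1 h-only regions were at least that wide. Next came chr4:48056210-48056420 (210 bases, c2) and chr4:48100080-48100270 (190 bases, c1). The other 4, at chr4:48024390-48024400, chr4:48072530-48072540, chr4:48073460-48073470 and chr4:48085890-48085900, were all 10 bases wide with a c1 centre. Regions of 10 bases made up 14.5% of all 1 h-only regions, so more of the Nr4a3 set than of the list had the smallest width. At 0 h the window held 1 region of its own, chr4:48118030-48118100 (70 bases, c1).

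Widths of shared regions changed in both directions. Among the 19 pairs with exactly 1 counterpart in the 3 windows, 10 were wider at 1 h and 9 narrower, and the median ratio of 1 h to 0 h width was 1.03. Over all 112001 such pairs, 20.4% were wider and 71.0% narrower at 1 h, with a median ratio of 0.9. At least 1.5 times as wide at 1 h were 4 of the 19, beside 4.06% of all pairs, and at least 1.5 times as wide at 0 h were another 4, beside 23.7% of all. By gene the median ratio was 1.17 in Nr4a1 (6 pairs), 0.769 in Nr4a2 (3 pairs) and 1.06 in Nr4a3 (10 pairs). The last 2 crossed 1 when a column was left out: Nr4a2 was at 2.91 without c1 of the 1 h list and 1.76 without c1 of the 0 h list, and Nr4a3 at 0.974 without either of these. Support went from 1 column to both in 2 of the 19 pairs and from both to 1 in 3, where the shares of all pairs were 1.77% and 22.2%. A width belongs to a combined region and has no replicate error.

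**Figure D3:**
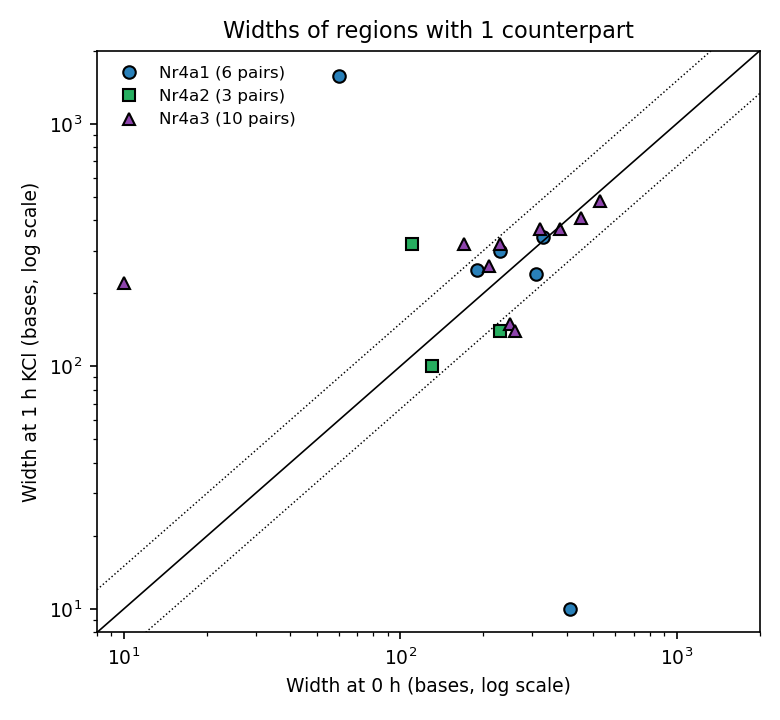
Width at 0 h (x axis) against width at 1 h of KCl (y axis), both in bases on log scales, for the 19 pairs of regions with exactly 1 counterpart, by gene. The solid line marks equal widths and the dotted lines a ratio of 1.5. At least 1.5 times as wide at 1 h are 4 of the 19 pairs, and another 4 are at least 1.5 times as wide at 0 h. Farthest from the solid line are 60 and 1570 bases and 410 and 10 bases in Nr4a1 and 10 and 220 bases in Nr4a3.

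Shared regions were matched by overlap, so a region that moved away could not be among the pairs. Small shifts of their centres are thus favoured by the matching, and no list-wide shift was computed. In the 19 pairs the mean centre moved by a median of 15 bases, from 0 to 305 bases, the highest value being the 410-base region of Nr4a1. Within the 35 both-column regions of the windows the 2 centres lay a median of 10 bases apart and at most 70.

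The stretches beside the windows did not share the surplus. In stretches of the window's own length on either side of each window, 38 regions were listed at 0 h and 22 at 1 h. Of these, 16 and 0 had no counterpart at the other time, beside 34.6% and 6.69% of all regions in the lists. The whole 1 h list was also shorter, at 0.705 times the 0 h list. Left and right of Nr4a1 (50 kb each) the numbers at 0 h and 1 h were 6 and 1, then 8 and 4. Beside Nr4a2 (70 kb each) they were 2 and 2, then 6 and 5, and beside Nr4a3 (100 kb each) 11 and 8, then 5 and 2. In each of these 6 stretches the 1 h number was equal to or below the 0 h number. These stretches were chosen after the windows' values were seen.

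The genome was also divided from position 0 into tiles of each window's length, counting a region in the tile that holds its middle and leaving out tiles with no region at either time. More regions at 1 h than at 0 h were found in 5.77% of 45759 tiles of 50 kb, 5.37% of 34249 tiles of 70 kb and 4.55% of 24766 tiles of 100 kb. The median difference was -1, -1 and -2 regions. The tile with the largest surplus at 1 h met the Nr4a3 window at each of the 3 lengths, with 6, 7 and 6 more regions than at 0 h. The 7 regions listed only at 1 h in that window each had a centre in 1 column, and 4 of them had the smallest width listed. With both-column regions only, or without c1 of the 1 h list, the surplus of the Nr4a3 window was 0. The tiles were not recounted in these ways. The fixed grid divides each window between 2 tiles: those of Nr4a1 had differences of -1 and 2, those of Nr4a2 -1 and 2, and those of Nr4a3 -2 and 6. The windows were placed around genes chosen with these lists known, so their surpluses of 5, 2 and 7 are not on equal terms with those of the tiles.

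**Figure D4:**
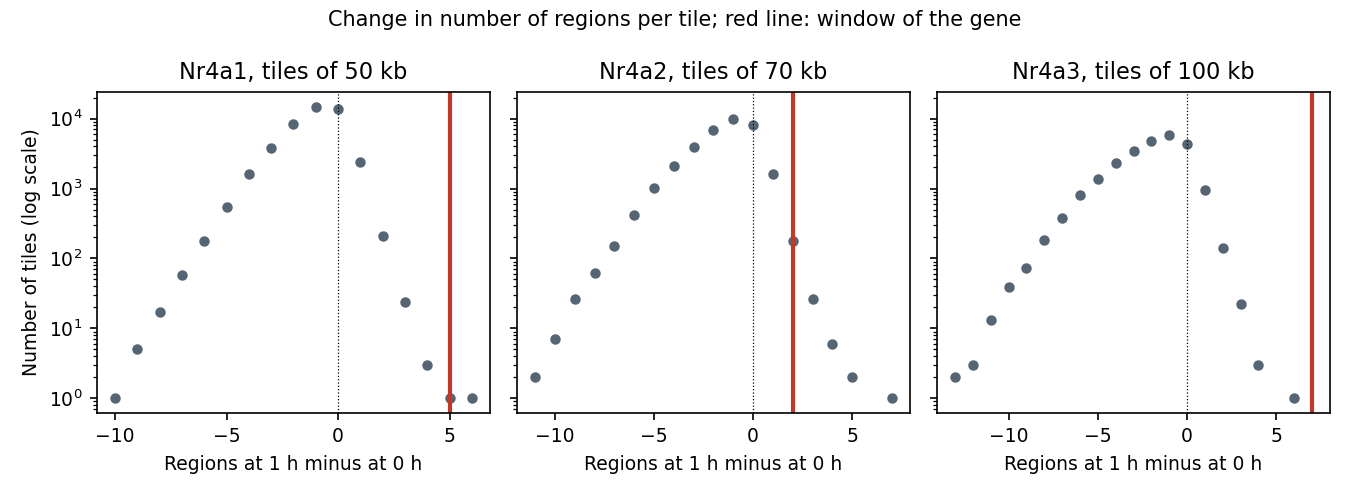
Number of tiles (y axis, log scale) by the number of regions at 1 h minus that at 0 h (x axis), for tiles of 50 kb, 70 kb and 100 kb. Points are tile counts and the red line is the gene's own window, at 5 for Nr4a1, 2 for Nr4a2 and 7 for Nr4a3, with most tiles at or below 0.

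Members of Nr4a1 lay close to the edges of its window: shortening it by 10 kb on each side left 4 of its 8 regions at 0 h and 9 of its 13 at 1 h. Its outermost 0 h members were chr15:101071210-101071520 (310 bases), 1.21 kb inside the left edge, and chr15:101119570-101119900 (330 bases), which ended 0.1 kb inside the right edge, and the nearest 0 h region outside, chr15:101069890-101069930 (40 bases), lay 0.07 kb beyond its left edge. In Nr4a2 the outermost members were 24.4 kb or more from an edge and the nearest regions outside 11.2 kb or more. In Nr4a3 the outermost members were 1.9 to 36.9 kb from an edge and the nearest regions outside 9.09 to 24.8 kb. By name, the RefSeq table (GRCm38.p6) places Nr4a1 between Grasp and Atg101 and Nr4a3 between Sec61b and Stx17 among protein-coding genes, and for Nr4a2 the coding neighbour on the lower side is Kcnj3. Whether a region in a window belongs to the Nr4a gene or to a neighbour is not given by the lists.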

How the data were processed

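Bound regions came from 3 deposited lists, each made by the authors from the 2 ChIP-seq libraries of a group. Per the file headers the columns are chromosome, start, end, c1 and c2, positions in bases, and no column holds a count or score. From the values, every c1 or c2 position lies inside its region and no region lacks both. The columns name no library. Bowtie and mm9 stand in the submitters' processing notes. Not given in the sources used here are the peak caller, the threshold and how replicates were joined. Positions are printed as deposited.

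Regions overlapping a window were taken as members, shared regions overlap by at least 1 base, and neighbours and promoters came from RefSeq tables (GRCm38.p6). The windows and lists were chosen with earlier results of these data known. Printed regions are those listed at 1 time with centres in both columns, all 1 h-only regions, the 3 widest per window and time and the 3 largest width changes per window, and further regions were named after their values were seen. No test was made. The overlap code was tested on 4000 simulated regions, of which 0 were miscalled. Python 3.11.15, numpy 2.4.6, pandas 2.3.3 and matplotlib 3.10.9 were used. The 52 reporter and plasmid samples were not analysed here.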

Additional observations from a re-analysis of the deposited data

How the results depend on the processing

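Of 195 values of 18 results under 11 alternatives, 146 kept their direction and stayed within 1.5 times the reported value, and 8 turned direction, all 8 of them median width ratios that crossed 1. The surplus at 1 h over 0 h stayed above 0 in 29 of 33 values and was 0 in the other 4, all in Nr4a2 or Nr4a3. Some values in both totals could not change. The 50% overlap and the 250-base centre rule only match regions, so every count of regions and every surplus under them equals the reported one. Leaving out a column of 1 time likewise cannot change the number of regions at the other time. The totals thus overstate how stable the results are. With only regions that had centres in both columns, the surplus was 1 in Nr4a1, 0 in Nr4a2 and 0 in Nr4a3, from 7, 2 and 9 regions at 1 h, the 1 h-only regions were 3, 1 and 1, and Nr4a2 had 1 0 h-only region and a median width ratio of 2.91. With only regions at least 100 bases wide, the surplus was 2, 1 and 3, the 1 h-only regions 4, 1 and 4, and Nr4a1 held 8 regions at 1 h. Overlap of at least 50% of both regions gave 4, 1 and 3 0 h-only regions. This overlap, the minimum of 100 bases and merging within 500 bases each gave a median width ratio of 0.974 in Nr4a3, against 1.06. Windows extended by 10 kb on each side gave 5 0 h-only regions and a surplus of 2 in Nr4a1 and 2 0 h-only regions in Nr4a3. Windows shortened by 10 kb gave 4 regions at 0 h and a median width ratio of 13.7 in Nr4a1, and 0 0 h-only regions in Nr4a3. The only pairs left in the shortened Nr4a1 window had ratios of 1.3 and 26.2, so 13.7 lies midway between them and describes neither. The cause of the other changes was not tested. Merging regions within 500 bases and matching by centres within 250 bases moved no value they gave by over 1.5 times.

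With 1 replicate column left out, the surplus ranged from 1 to 6 in Nr4a1, 0 to 3 in Nr4a2 and 0 to 10 in Nr4a3. The 1 h-only regions ranged from 4 to 8, 1 to 3 and 1 to 10, and the 0 h-only regions from 1 to 3, 0 to 2 and 0 to 2. Regions at 1 h ranged from 3 to 5 in Nr4a2 and from 12 to 19 in Nr4a3, and the median width ratio from 0.769 to 2.91 in Nr4a2, with 1.76 without c1 of 0 h, and from 0.974 to 1.06 in Nr4a3. The lowest surplus came without the first 1 h column, which leaves a shorter 1 h list. Since c1 and c2 name no library, columns were not paired. No paired analysis was possible because no column is tied to a numbered sample. Without read depth, limits of detection were not computed.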

Other observations

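The 510-base region listed only at 1 h in Nr4a3, chr4:48066620-48067130, has its sole centre 5 bases from its start. Of the 4540 regions at 1 h that were at least 500 bases wide, 7 (0.154%) had all their centres within 10 bases of an edge, and 5 of these 7 had a centre in 1 column. At 0 h the numbers were 6 of 7934 (0.0756%), 5 of the 6 with a centre in 1 column. The region was singled out after its values were seen.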
